A study of Mus musculus with 7 samples.

Results

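Binding of the transcription factor Fos was examined around 47 genes of Wnt signalling in the hippocampus of mice given saline or kainic acid. The genes were all protein-coding genes on chromosomes 1 to 19 of the RefSeq GRCm38.p6 gene table whose symbol is Wnt, Fzd, Dkk, Sfrp or Axin followed by a digit, together with Lrp5, Lrp6, Ctnnb1, Apc, Tcf7, Tcf7l1, Tcf7l2 and Lef1. They are 47 of the 20665 protein-coding genes of these chromosomes. The rule itself uses no measured value. By role they fall into 19 Wnt ligands, 12 receptors (10 Frizzled genes, Lrp5 and Lrp6), 8 secreted antagonists (4 Dkk and 4 Sfrp genes), 4 genes of β-catenin and its destruction complex (Ctnnb1, Apc, Axin1, Axin2) and 4 Tcf and Lef factors.

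The data were chromatin immunoprecipitation sequencing (ChIP-seq) peak lists made with a monoclonal anti-Fos antibody. Fos is induced in neurons by strong activity and pairs with Jun proteins to form AP-1. All mice were wild-type C57BL/6J aged 2 months. The 3 control libraries came from mice injected with saline. The 3 other libraries came from mice given kainic acid, a glutamate receptor agonist that provokes seizures, at 10 mg/kg in 2 injections 30 min apart into the peritoneum, and killed 1 hour after the first with seizures of level 4. The series also has 1 input library, of which no peak list was used here. Animals per library are not given in the labels, so p-values measure the spread between these libraries, which may be technical. The tissue was whole hippocampus, and peak lists do not measure marker expression, so its cell makeup could not be checked. Strong Fos binding in few cells and weak binding in many cannot be told apart.

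Wnt proteins are secreted lipid-modified ligands that bind Frizzled receptors and the co-receptors Lrp5 and Lrp6. In the absence of a ligand, a complex built on Axin and Apc marks β-catenin for degradation. With a ligand bound, β-catenin builds up, enters the nucleus and acts with Tcf and Lef factors on target genes. Sfrp proteins bind Wnt ligands and Dkk proteins bind the co-receptors, so both families restrain the signal. In the hippocampus the pathway is known for its part in dendrite growth, synapse formation and the birth of granule neurons in the adult.

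Per list, the deposited files held 15009, 63197 and 29650 peaks for kainic acid replicates 1, 2 and 3, and 7, 3277 and 2 peaks for saline replicates 1, 2 and 3. Peaks sharing at least 1 bp, from any list, were joined into regions. A region was called a kainic acid region when 2 or 3 of the kainic acid lists had a peak in it. A region or peak was assigned to a gene when it overlapped the gene's span widened by 10 kb on both sides. All 24 of the 24 activity-regulated genes listed as a check of the antibody had such a region, against 41.8% of all protein-coding genes. That list was chosen with earlier results of these data known, so it is not an independent check. Of small lists of cell type markers, 5 of 7 neuronal, 3 of 5 astrocyte and 2 of 5 oligodendrocyte genes had a kainic acid region. So did 2 of 5 microglial and 2 of 5 endothelial genes. Beside the 41.8% of all genes these are counts of few genes, and differences between the lists were not tested. The counts say where peaks lie and not which cells were present.

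Start sites of 31 of the 47 genes were found in a RefSeq promoter table of GRCm38.p6, with 40 windows in all. A peak of kainic acid replicate 2 overlapped 4 of the 40 windows, and a peak of saline replicate 2 overlapped 3. No peak of kainic acid replicates 1 and 3 overlapped any. Such overlaps were not counted for windows of all protein-coding genes, so these numbers cannot be called high or low. The 5 windows of 250 bases printed here are those with a saline peak (Axin2, Fzd7 and Fzd10) and those with both a kainic acid peak and a motif match (Wnt5b and Wnt11). Capitals mark the letters TGANTCA, the AP-1 site, or CTTTGAT, the Tcf site, searched on both strands. In the Tcf match of Wnt11 the letters lie on the other strand and read ATCAAAG.
Wnt5b, chr6:119544348-119544597, minus strand: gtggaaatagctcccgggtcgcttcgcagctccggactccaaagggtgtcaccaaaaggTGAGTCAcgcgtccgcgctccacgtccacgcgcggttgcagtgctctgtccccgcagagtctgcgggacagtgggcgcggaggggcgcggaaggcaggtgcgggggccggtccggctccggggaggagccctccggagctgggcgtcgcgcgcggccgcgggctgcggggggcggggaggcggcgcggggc
Wnt11, chr7:98834862-98835111, plus strand: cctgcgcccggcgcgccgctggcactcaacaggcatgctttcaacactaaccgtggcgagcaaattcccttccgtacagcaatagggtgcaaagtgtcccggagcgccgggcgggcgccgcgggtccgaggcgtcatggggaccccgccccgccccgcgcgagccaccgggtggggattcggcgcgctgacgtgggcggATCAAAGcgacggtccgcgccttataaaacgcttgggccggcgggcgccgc
Axin2, chr11:108920099-108920348, plus strand: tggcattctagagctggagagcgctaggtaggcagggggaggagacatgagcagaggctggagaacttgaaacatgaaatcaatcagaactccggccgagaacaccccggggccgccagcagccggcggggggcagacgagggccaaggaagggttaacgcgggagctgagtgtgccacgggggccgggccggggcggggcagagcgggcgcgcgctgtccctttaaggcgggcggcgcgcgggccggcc
Fzd7, chr1:59481897-59482146, plus strand: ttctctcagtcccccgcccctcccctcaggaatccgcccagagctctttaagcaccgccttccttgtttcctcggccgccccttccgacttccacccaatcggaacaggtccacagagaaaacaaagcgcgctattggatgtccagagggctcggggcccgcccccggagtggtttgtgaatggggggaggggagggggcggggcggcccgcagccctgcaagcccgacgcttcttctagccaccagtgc
Fzd10, chr5:128600856-128601105, plus strand: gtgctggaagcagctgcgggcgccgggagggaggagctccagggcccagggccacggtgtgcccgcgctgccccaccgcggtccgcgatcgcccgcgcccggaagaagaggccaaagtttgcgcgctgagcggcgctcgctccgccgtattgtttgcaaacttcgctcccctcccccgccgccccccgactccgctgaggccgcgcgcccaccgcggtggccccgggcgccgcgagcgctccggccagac
The Wnt5b window held the single AP-1 match among the 40 windows of these genes, 2.5% of them, against 6.18% of 20085 windows of all protein-coding genes. A Tcf match was found in 2 of the 40 windows (5.0%), in Wnt11 and at another start of Wnt5b, against 2.85% of all windows. The cAMP response element TGACGTCA was in none of the 40 and in 1.98% of all windows. A match is a description of the letters and no evidence of binding.

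The first comparison asks how many of the 47 genes lay near Fos peaks after kainic acid and after saline. Genes with at least 1 peak within 10 kb numbered 11, 35 and 17 in kainic acid replicates 1, 2 and 3, and 0, 7 and 0 in saline replicates 1, 2 and 3. Every kainic acid library was thus above every saline library. Of all protein-coding genes, 27.7%, 62.6% and 42.7% had a peak in the 3 kainic acid lists, and 0.0145%, 17.9% and 0.0% in the 3 saline lists. For the 47 genes these shares were 23.4%, 74.5% and 36.2% with kainic acid, and 14.9% in saline replicate 2. They were lower than over all genes in kainic acid replicates 1 and 3 and in saline replicate 2, and higher in kainic acid replicate 2.

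Kainic acid libraries had a mean of 21.0 ± 12.5 genes with a peak (SD, n = 3). Saline libraries had a mean of 2.33 ± 4.04 (SD, n = 3), so the means differed by 18.7. This exceeded the SD of either group. Without kainic acid replicate 2, the longest list, it was 11.7. An exact permutation test (two-sided, 20 assignments of the libraries) gave p = 0.1, which is the lowest p this design can reach. Distinct peaks within reach of the genes numbered 15, 100 and 30 with kainic acid and 0, 9 and 0 with saline (exact permutation p = 0.1). The difference moves with the length of the lists, and its part in the result was not tested. As a share of each list, 0.0999%, 0.158% and 0.101% of the kainic acid peaks and 0.275% of the peaks of saline replicate 2 lay near these genes. Peaks within 10 kb of any protein-coding gene numbered 10821 of 15009, 47672 of 63197 and 22013 of 29650 with kainic acid. In saline replicate 2 they numbered 3086 of 3277, a larger share as well. The saline value for these genes rests on 9 peaks of 1 library. The contrast was not tested and cannot be called particular to these genes.

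**Figure D1:**
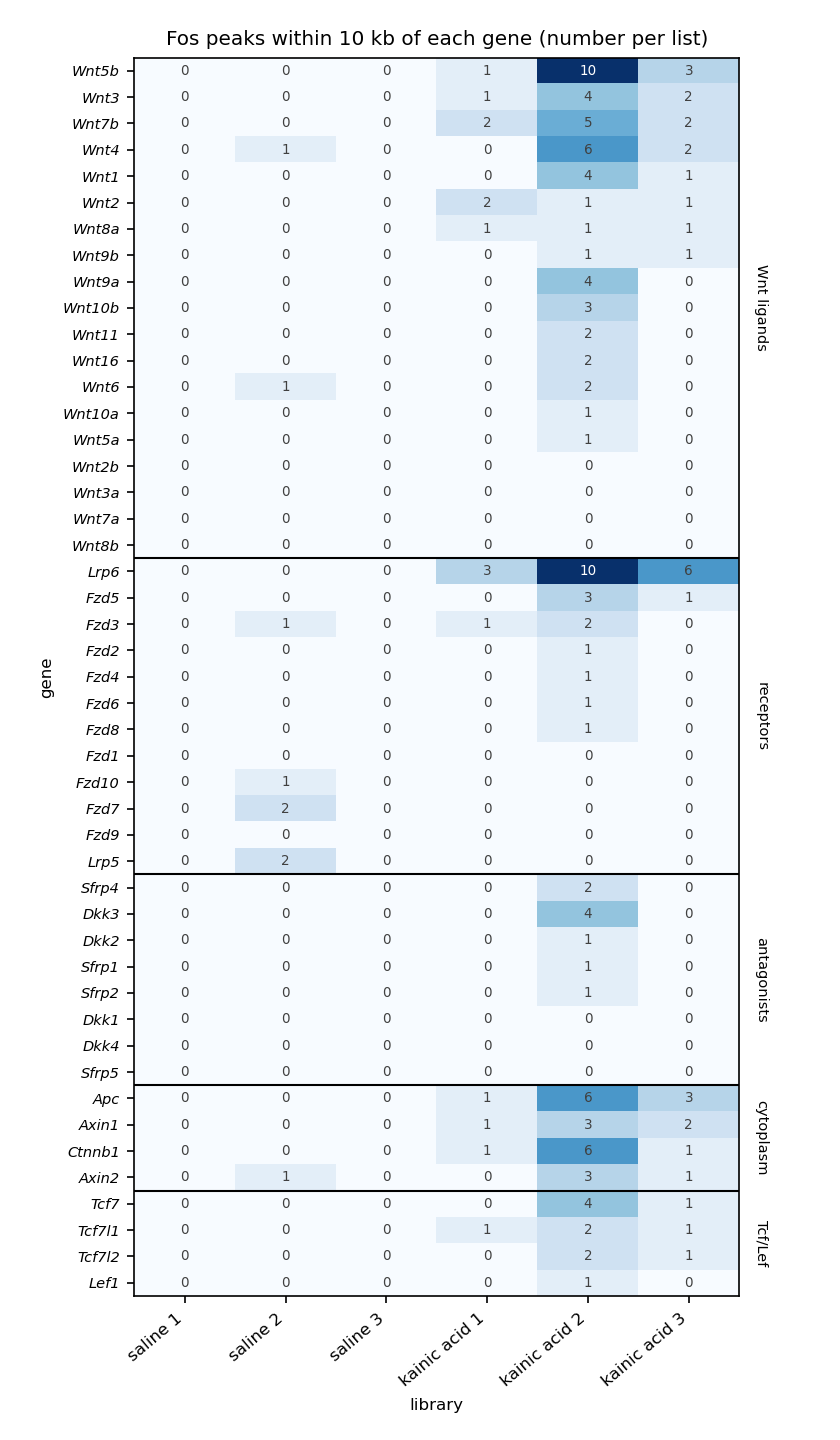
Number of Fos peaks within 10 kb of each of the 47 genes (rows, grouped by role, "cytoplasm" for Ctnnb1, Apc, Axin1 and Axin2) in each of the 6 lists (columns); darker cells hold more peaks. Wnt5b and Lrp6 have 10 peaks each in kainic acid replicate 2, and the saline peaks are all in replicate 2.

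Of the 47 genes, 19 (40.4%) had a kainic acid region within 10 kb, against 41.8% of all protein-coding genes. A region in all 3 kainic acid lists was near 11 genes (23.4%), against 25.0% of all genes. Without kainic acid replicate 2 the 19 genes became 11 (all genes 25.1%), without replicate 3 they also became 11 (all genes 26.8%), and without replicate 1 they became 18. The share of these genes with a region was thus close to that of genes in general, and the median number of regions was 0 in both. The genes had 30 regions within reach, 14 of them in all 3 lists and 16 in exactly 2. Without kainic acid replicate 2, and likewise without replicate 3, there were 14, and without replicate 1 there were 29. None of the 30 was within reach of a pair of member genes, although the windows of Wnt6 and Wnt10a, Wnt3a and Wnt9a, Wnt9b and Wnt3, and Wnt10b and Wnt1 overlap. Per Mb of window there were 10.8 regions around the 47 genes and 16.2 around all protein-coding genes.

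Longer genes offer more room for a region, so genes were also compared by span. The median span was 26.7 kb for the 47 genes and 17.5 kb for all genes. Of genes under 10 kb, 4 of 16 had a region (25.0%, all genes 23.5%). From 10 to 30 kb it was 2 of 9 (22.2%, all genes 38.3%), from 30 to 100 kb 8 of 15 (53.3%, all genes 53.8%) and at 100 kb or more 5 of 7 (71.4%, all genes 83.7%). The genes of 100 kb or more had a mean of 1.86 regions each, against 4.9 for all genes of that class, and a median of 1 against 3. With the class shares of all genes, 47 genes of these spans would have a share of 45.0%, or 21.1 genes.

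The roles differed in how often a region was near. It was near 8 of 19 ligands (42.1%), 3 of 12 receptors (25.0%), 1 of 8 secreted antagonists (12.5%), 4 of 4 genes of β-catenin and its destruction complex (100%) and 3 of 4 Tcf and Lef factors (75.0%). All genes of the same span classes gave 44.0%, 38.6%, 34.8%, 57.4% and 76.3% in that order. By this call the ligands and the Tcf and Lef factors were close to genes of their span. The receptors and antagonists were below genes of their span, and the β-catenin group above. These are counts of few genes, and the differences between roles were not tested. Without kainic acid replicate 2, and likewise without replicate 3, the ligands with a region numbered 5, the receptors 2 and the antagonists 0. In these settings the β-catenin group numbered 3 and the Tcf and Lef factors 1. A region in all 3 lists was near 5 ligands (26.3%), 2 receptors (16.7%) and 0 antagonists (0.0%). It was near 3 genes of the β-catenin group (75.0%) and 1 Tcf factor (25.0%). All genes of the same span classes gave 25.8%, 23.8%, 19.1%, 38.1% and 58.3% in that order. By this stricter call the Tcf and Lef factors were below genes of their span.

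**Figure D2:**
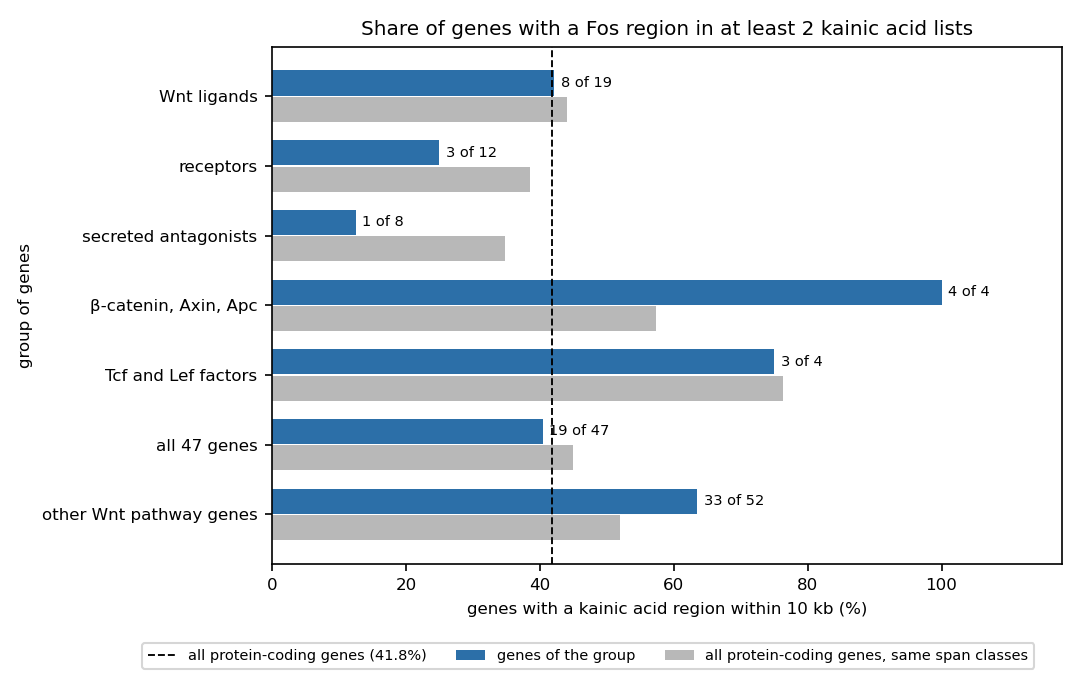
Share of genes (%) with a kainic acid region within 10 kb for each role, for all 47 genes and for 52 other Wnt pathway genes (blue, counts beside the bars), with the share of all protein-coding genes of the same span classes (grey) and of all protein-coding genes (dashed, 41.8%). The antagonists are lowest with 1 of 8 and the β-catenin group highest with 4 of 4.

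Among the ligands, Wnt7b, known for promoting dendrite growth in hippocampal neurons, had the region of best rank of the 30 by its mean percentile of fold over the kainic acid lists, at 3.85. Its peaks within 10 kb numbered 2, 5 and 2 in kainic acid replicates 1, 2 and 3 and 0 in each saline list. The region at chr15:85574262-85574979 lay inside the gene's span (chr15:85535437-85581821), with its summit 7.08 kb from the nearer end. Its fold over background, the authors' value within each list, was 6.67, 23.5 and 12.4 in kainic acid replicates 1, 2 and 3. In percentiles of each list's folds, where 0 is the highest, it stood at 10.8, 0.142 and 0.616. The reads over its summit, solved from the fold and the −log10 p, were 29, 86 and 70. The other Wnt7b region (chr15:85546422-85547601) had folds of 5.03, 11.7 and 4.96. Both regions were in all 3 lists, and each had its best within-list percentile in replicate 2.

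Wnt2, a ligand known from lung development, followed with a region at chr6:17977999-17979307, outside the span and 6.17 kb from it, on the side away from its start. Its folds were 7.47, 12.7 and 5.92, with percentiles of 6.49, 2.34 and 14.9. Wnt3, a ligand involved in the birth of hippocampal neurons in the adult, had 1, 4 and 2 peaks with kainic acid and 0 in each saline list. Its region at chr11:103789820-103790526, inside the span and 16.1 kb after the start, had folds of 4.45, 13.0 and 6.79. The second Wnt3 region (chr11:103811193-103811793, 37.3 kb after the start) was in replicates 2 and 3, with folds of 6.75 and 5.36, so that Wnt3 had 1 region when either list was left out.

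Wnt5b, a ligand that acts mainly outside the β-catenin branch, had the most peaks of the ligands, with 1, 10 and 3 in kainic acid replicates 1, 2 and 3 and 0 in each saline list. Of these, 3 regions were shared. The region at chr6:119430447-119431024, 1507 bp outside the span, was in all 3 lists with folds of 4.49, 6.17 and 3.53. The regions at chr6:119443202-119443699 and chr6:119521567-119522000, both inside the span, were in replicates 2 and 3 with folds between 3.14 and 3.69. When either list was left out, Wnt5b had 1 region. Of the shared regions the first had the better ranks, with percentiles of 46.3, 21.9 and 70.2.

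At the Wnt5b start printed above, kainic acid replicate 2 had a peak with its summit at −187, counting −1 as the last base before the start, and 22 reads over it (fold 6.21, −log10 q 10.8). The AP-1 letters tgagtca run from −191 to −185, so the summit lies within them. Replicates 1 and 3 had no peak there, and neither did any saline list. Near another Wnt5b start replicate 2 alone had a peak of fold 7.64 with 32 reads, its summit at −368.

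The other ligands with a region had 1 each. Wnt4, which acts in kidney and gonad development, had 0, 6 and 2 peaks with kainic acid and 0, 1 and 0 with saline. Its region at chr4:137297568-137298372 lay inside the span near its far end, 20.1 kb after the start, with folds of 6.48 and 5.56 in kainic acid replicates 2 and 3. Saline replicate 2 had a peak in the same region with a fold of 4.62 and 14 reads, and this was the single region of the 30 with a saline peak. Wnt1, the founding member of the family and a midbrain patterning signal, had 0, 4 and 1 peaks with kainic acid and 0 in each saline list. Its region at chr15:98794071-98794623 was 241 bp past the end of the gene, with folds of 6.21 and 4.18 in replicates 2 and 3.

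Wnt8a, a ligand of the early embryo, had a region 3.55 kb outside its span (chr18:34538280-34538773) in all 3 lists, with folds of 3.16, 5.71 and 3.53 at percentiles of 93.1, 26.0 and 70.7. Wnt9b, which acts in kidney development, had a region inside its span (chr11:103729430-103730154) with folds of 4.27 and 2.99 in replicates 2 and 3. Of the 11 ligands without a region, Wnt6, Wnt9a, Wnt10a, Wnt10b, Wnt11, Wnt16 and Wnt5a had peaks in 1 kainic acid list, replicate 2, from 1 to 4 each. Wnt2b, Wnt3a, Wnt7a and Wnt8b had no kainic acid peak. At Wnt11, the peak of replicate 2 over the window printed above had a fold of 3.47 and 14 reads, with its summit at −146. That summit does not fall on the Tcf letters, which begin at −51.

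**Figure D3:**
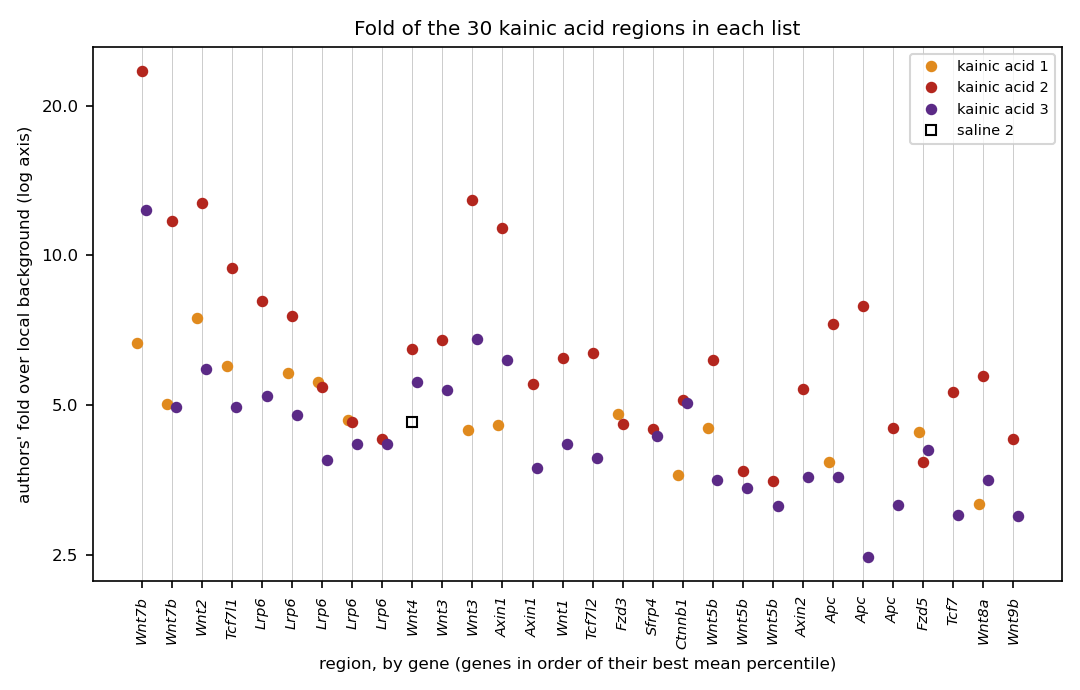
Fold over background (authors' value within each list, log axis) of each of the 30 kainic acid regions, 1 column per region and labelled by gene, in kainic acid replicates 1, 2 and 3 and, where it had a peak there, saline replicate 2 (open square). A Wnt7b region reaches 23.5 in replicate 2, and most regions lie between 3 and 8.

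Among the receptors, Lrp6, the co-receptor that recruits Axin when a Wnt is bound, had the most regions of all 47 genes. Its peaks numbered 3, 10 and 6 in kainic acid replicates 1, 2 and 3, and 0 in each saline list. All 5 regions lay inside its span of 120438 bp (chr6:134446476-134566913), 3 of them in all 3 lists. All protein-coding genes of 100 kb or more had a mean of 4.9 regions and a median of 3, so this number is near the mean of its class. The region at chr6:134554991-134555575 had folds of 5.81, 7.57 and 4.78, that at chr6:134543945-134544703 had 5.55, 5.43 and 3.88, and that at chr6:134500356-134501204 had 4.67, 4.63 and 4.17. The folds of these 3 regions thus stayed between 3.88 and 7.57 in every list. The other 2 regions were in replicates 2 and 3, and Lrp6 had 3 regions when either list was left out. Lrp5, the related co-receptor with a span of 101761 bp, had no kainic acid peak and 2 peaks of saline replicate 2.

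Of the 10 Frizzled genes, 2 had a region. Fzd3, a receptor that guides axon tracts, had 1, 2 and 0 peaks with kainic acid and 0, 1 and 0 with saline. Its region inside the span (chr14:65245500-65245907) had folds of 4.80 and 4.59 in replicates 1 and 2, and it is the single region of the 30 not found in replicate 3. The Fzd5 region (chr1:64719300-64720616) reached into the 10 kb window by its edge, 9.94 kb from the span, and lay in the span of Ccnyl1. Of its peaks, that of replicate 3 alone reached the window, and those of replicates 1 and 2 lay outside it. Fzd5 had 0, 3 and 1 peaks within 10 kb, and the 3 of replicate 2 lay elsewhere, in no other list. Fzd2, Fzd4, Fzd6 and Fzd8 had 1 peak each in kainic acid replicate 2, and Fzd1, Fzd7, Fzd9 and Fzd10 had no kainic acid peak.

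Of the secreted antagonists, Sfrp4 alone had a region, and it too met the window by its edge, 9.88 kb from the span and in the span of Epdr1 (chr13:19612349-19613293). Its folds were 4.47 and 4.33 in replicates 2 and 3, and the peak of replicate 3 lay outside the window. Within 10 kb Sfrp4 had 0, 2 and 0 peaks with kainic acid. Dkk3, an atypical member of the Dkk family, had 4 peaks in replicate 2 and none in the other lists, the strongest with a fold of 6.75 and 24 reads. Dkk2, Sfrp1 and Sfrp2 had 1 peak each, all in replicate 2. Dkk1, the best known inhibitor of Lrp5 and Lrp6, had no peak in any list, and neither had Dkk4 or Sfrp5. No antagonist had a saline peak.

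All 4 genes of β-catenin and its destruction complex had a region. Apc, the scaffold that holds β-catenin for phosphorylation, had 1, 6 and 3 peaks with kainic acid and 0 in each saline list. Its region at chr18:34212511-34213074, 7223 bp outside the span, was in all 3 lists with folds of 3.84, 7.29 and 3.58. The regions at chr18:34247784-34248656 and chr18:34330676-34331404 were in replicates 2 and 3, and the second lay in the span of Srp19. When either list was left out, Apc and Axin1 had 1 region each. Axin1, the limiting scaffold of the complex, had 1, 3 and 2 peaks, and its region inside the span (chr17:26165755-26166562) had folds of 4.56, 11.3 and 6.16. Its other region, 7098 bp outside the span, lay in the span of Rgs11, with folds of 5.52 and 3.73 in replicates 2 and 3. Ctnnb1, which encodes β-catenin itself, had 1, 6 and 1 peaks, and its region at chr9:120959627-120960288 had its summit 0.505 kb from the far end of the gene, with folds of 3.62, 5.13 and 5.04.

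Axin2, a gene switched on by Wnt signalling that restrains it in return, had 0, 3 and 1 peaks with kainic acid and 0, 1 and 0 with saline. Its kainic acid region (chr11:108941033-108941568, 21.1 kb after the start) had folds of 5.40 and 3.58 in replicates 2 and 3. The saline peak lay elsewhere, over the window printed above, with its summit at −133, a fold of 7.32 and 27 reads. It stood at percentile 0.0916 of that list. No kainic acid list had a peak overlapping that saline peak, although replicate 2 had one with its summit at −486 and 13 reads.

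Of the nuclear factors, Tcf7l1, mostly a repressor of Wnt targets, had 1, 2 and 1 peaks with kainic acid and 0 in each saline list. Its region inside the span (chr6:72650340-72651218) was in all 3 lists, with folds of 6.00, 9.45 and 4.97. Tcf7l2, the main Tcf factor of thalamic neurons, had 0, 2 and 1 peaks and a region at chr19:55876506-55877180 with folds of 6.38 and 3.92. Tcf7, known from T cells, had 0, 4 and 1 peaks. Its region (chr11:52245638-52246213) lay 314 bp past the end of the gene and in the span of Skp1, with folds of 5.32 and 3.01. Lef1, the fourth of these factors, spans 114061 bp and had no region and 1 peak, in replicate 2. The nearest region to Lef1 was 24.4 kb away.

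**Figure D4:**
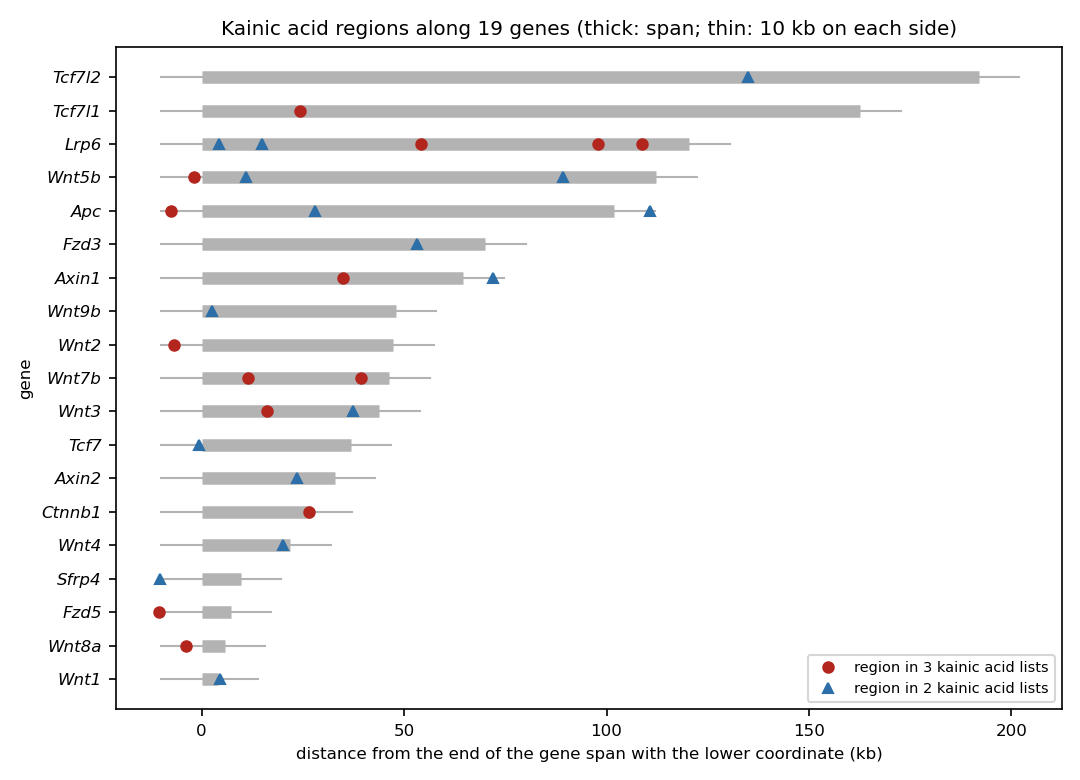
Positions of the 30 kainic acid regions along the 19 genes that had them, in kb from the end of the span with the lower coordinate; thick bars are gene spans, thin lines the 10 kb on each side, red circles regions in 3 lists and blue triangles regions in 2. Of the 30 regions, 20 lie inside the spans, and those of Fzd5 and Sfrp4 sit at the edge of the window.

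The 30 regions had a median width of 669 bp (336 to 1317 bp). Of these, 20 (66.7%) lay wholly inside the span of their gene and 10 outside, and 5 lay in the span of another protein-coding gene. A summit within 1 kb of an end of the span was found for 3, at Tcf7, Wnt1 and Ctnnb1. For Tcf7, Wnt1 and Ctnnb1 this was the far end and not a start in the promoter table. These positions were not counted for regions near all protein-coding genes, so they cannot be called particular to these genes. The median of the regions' mean percentile was 43.5, against 43.1 for the 19780 regions near any protein-coding gene. In the best 10 percentiles were 2 of the 30 (6.67%), against 7.14% of those 19780. All 3 lists held 46.7% of the 30 regions and 43.4% of the 19780. Among regions in at least 2 lists, those of these genes were thus close in rank to regions near genes in general.

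Of the 102 merged regions with a peak in any kainic acid list near the genes, 72 were in a single list, and 70 of those in replicate 2. The share in at least 2 lists was 29.4%, below the 39.3% for regions near all protein-coding genes, a difference that was not tested. Of the 28 genes without a region, 16 had a peak in a single kainic acid list and 12 had none. The nearest genes beyond the 10 kb limit were Wnt10b, with a region 15.9 kb away, and Dkk3, with one 17.1 kb away. The farthest was Fzd9 at 219.6 kb, and the median of the 28 was 65.6 kb.

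Of the 9 saline peaks near these genes, 1, at Wnt4, fell in a kainic acid region and the other 8 did not. Of the 7 genes with a peak of saline replicate 2, 3 also had a kainic acid region (Wnt4, Fzd3 and Axin2), and 3 had no kainic acid peak at all (Fzd7, Fzd10 and Lrp5). Wnt6 had a saline peak and peaks of kainic acid replicate 2. Shares over all peaks of saline replicate 2 and all genes were not computed, so this overlap cannot be called particular to these genes. Fzd7, a receptor of stem and progenitor cells, had 2 saline peaks, with summits at −36 and 449 bases after its start, folds of 5.39 and 4.15, and 19 and 15 reads. Fzd10 had one at −175 with a fold of 5.23 and 16 reads. Summits within 1 kb of a span end or start made up 6 of 9 saline peaks (66.7%), against 1 of 15 (6.67%), 16 of 100 (16%) and 3 of 30 (10%) in kainic acid replicates 1, 2 and 3. This rests on 1 saline library, and the difference was not tested. The same shares over all peaks of each list were not computed, so the contrast cannot be called particular to these genes.

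**Figure D5:**
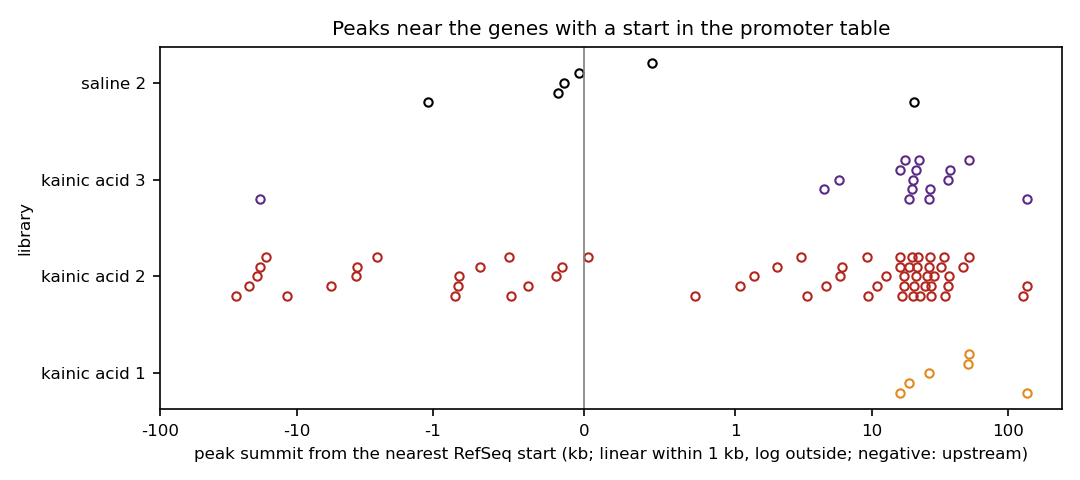
Distance in kb from each peak's summit to the nearest RefSeq start (linear within 1 kb, log outside, negative upstream), for peaks near the 31 genes with a start in the promoter table, in the 4 lists that had such peaks. The saline replicate 2 summits of Fzd7, Fzd10 and Axin2 lie within 1 kb of the start, while nearly all summits of kainic acid replicates 1 and 3 lie over 1 kb after it. The saline summits of Wnt6 and Wnt4 lie beyond 1 kb. Kainic acid replicate 2 also has summits within 1 kb of a start, at Wnt1, Wnt4, Wnt5b, Wnt9a, Wnt11, Wnt16 and Axin2.

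A further list of pathway genes held 52 genes on these chromosomes, among them the regulators of Wnt secretion, R-spondins and their receptors, Dishevelled and kinases, planar polarity genes and corepressors. A kainic acid region was near 33 of them (63.5%), and a region in all 3 lists near 26 (50.0%). All genes of the same span classes gave 51.9% and 34.0%. Prickle2, a planar polarity protein found at synapses, had the most, with 23 regions and 8, 47 and 31 peaks in kainic acid replicates 1, 2 and 3 across a span of 335444 bp. Daam1, a formin of the planar polarity branch, had 8 regions and 1, 16 and 11 peaks. Prickle1 had 5 regions, and Lgr6, a receptor of R-spondins, and Csnk1a1, a kinase that primes β-catenin for degradation, had 4 each. Znrf3, a ligase that removes Frizzled receptors, the Wnt receptors Ror1 and Ror2, and Kremen1, a receptor of Dkk proteins, had 3 each, and Celsr1 had 2. Without kainic acid replicate 2 the regions near Prickle2 numbered 7 and without replicate 3 they numbered 6, those near Daam1 and Lgr6 became 1 either way, and those near Csnk1a1 became 2. Znrf3, Kremen1, Ror1 and Celsr1 had 1 region each when either of these libraries was left out, and Prickle1 had 3 without replicate 2. A peak of saline replicate 2 was near 16 of the 52 genes (30.8%, all genes 17.9%), none of them among these 10. Whether the 52 genes differ from the 47 was not tested.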

How the data were processed

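Fos ChIP-seq peak lists of 3 saline and 3 kainic acid libraries were used, 1 list per library and none pooled. Per the submitters' processing notes, reads were processed with Trim Galore 0.6.4, Bowtie2 2.3.4.3, MACS2 and deepTools 3.5.0 on mm10. The control library, the cutoff and the MACS2 version are not given in the sources used here. The peak names in the deposited files carry a mapping quality filter of 30. In the deposited lists, the fold is a linear ratio of a peak to background within a library, the −log10 p and −log10 q belong to that library, and the score is 10 times the −log10 q, rounded down. The authors did not scale these values between libraries, so they served only to describe, rank or filter peaks within a list. A region missing from a list was not called, which is not the same as unbound.

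Peaks were merged, assigned to gene spans of the RefSeq GRCm38.p6 table and counted with Python 3.11.15, pandas 2.3.3, numpy 2.4.6 and scipy 1.17.1, and plots were drawn with matplotlib 3.10.9. Spans carry no exons, so exonic and intronic positions were not told apart. Read totals are not given, so depth is unknown. Reads over each summit were solved from fold and −log10 p as a Poisson model (tolerance 0.001), for 154 of 154 peaks near the 47 genes. They ran from 11 to 86, so many peaks rest on few reads. On simulated data 1000 of 1000 read numbers and 400 of 400 region counts were returned. The simulated reads used the solver's own Poisson model, so this checks the code and not whether the deposited values follow that model.

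Groups were compared by the number of genes with a peak, with an exact permutation test over libraries. Same-numbered libraries had correlations of their deviations in peaks per gene of 0.195, 0.204 and 0.149. Saline replicates 1 and 3 hold almost no peaks and so deviate alike (saline replicate 3 with kainic acid replicate 1 gave 0.199), and the labels state no pairing. The rule for named genes took the 15 genes with the most regions (ties by percentile of fold), every gene with a saline peak and every gene with a region within 1 kb of an end, plus 10 of the other pathway genes; genes named outside it were named to account for all 47. The genes and lists were chosen with earlier results of these data known. Alternatives were reach, −log10 q, number of lists, equal list lengths, summit distance and leaving out libraries.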

Additional observations from a re-analysis of the deposited data

How the results depend on the processing

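The number of the 47 genes with a kainic acid region, 19 as reported, was 15 with a reach of 2 kb (all genes 33.3%), 28 with 50 kb (65.4%), 18 when summits had to lie within 200 bp of each other (39.8%) and 16 with a −log10 q of at least 5 (34.4%). It was 7 with a −log10 q of at least 10 (20.6%), 11 with all 3 lists (25.0%), 35 with any 1 list (63.5%) and 11 with equal numbers of peaks from each kainic acid list (28.3%). Without 1 kainic acid library it ran from 11 (replicates 2 and 3) to 18. The 30 regions near the genes became 73 with a reach of 50 kb, 11 with a −log10 q of at least 10, 14 with all 3 lists, 102 with any 1 list, 16 with equal numbers, and 14 to 29 without 1 kainic acid library. The 8 ligands became 4 with a −log10 q of at least 10, 5 with all 3 lists, 15 with any 1 list, 5 with equal numbers and 5 to 8 without 1 library. The 3 receptors became 1 with a −log10 q of at least 10 and 7 with any 1 list. The antagonists, 1 as reported, became 0 with a reach of 2 kb, a −log10 q of at least 10, all 3 lists, equal numbers or summits within 200 bp, 4 with 50 kb, 5 with any 1 list, and 0 to 1 without 1 library. The 3 Tcf and Lef factors became 1 with a −log10 q of at least 10, with all 3 lists and with equal numbers, and 1 to 3 without 1 library. With a −log10 q of at least 10, the 4 genes of the β-catenin group became 1 and the 33 other pathway genes 14. Where the setting asks for more lists, stronger peaks, a narrower reach or lists cut to equal numbers, fewer peaks enter by construction. With a wider reach or any 1 list, more enter by construction. With a kainic acid library left out, a region needed a peak in each of the remaining kainic acid lists, so counts could only fall or stay. The cause of any other shift was not tested.

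The difference of 18.7 genes with a peak between kainic acid and saline kept its direction in every setting but changed in size, from 8.33 with a −log10 q of at least 10 to 27.3 with a reach of 50 kb, and from 11.7 (without kainic acid replicate 2) to 23.7 without 1 library. On the scale of log10(number of peaks + 1) it was 1.23. With the replicate number as a block it was 18.7 (exact sign-flip permutation p = 0.25), and no call changed, since the design cannot reach 0.05 with or without the block. The difference did not reverse, but the saline lists are so short that it had little room to. A count has no direction to reverse. Of the 330 region counts of single genes, 135 were lower, 47 of these at 0, and 47 were higher. These are counts of the named genes over all settings and include the 10 other pathway genes. Fzd7, Wnt6, Lrp5 and Fzd10, also among them, had no region to lose. Many peaks rest on few reads, and with 2 nearly empty saline lists the control level rests on saline replicate 2.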
